A study of Homo sapiens with 12 samples.

Results

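HIF1A, ANKRD37, LOX, HK2, VEGFA, ANGPTL4, CA9 and BNIP3, 8 genes of the response to low oxygen, were followed in HSC-3 cells, a human line grown from a squamous carcinoma of the tongue. They were named together with 2 features, HIF1A-AS1 and UFSP2, that lie across from HIF1A and ANKRD37 on the other DNA strand, which makes 10 names. Each gene was read at its own row of the count table and, where one exists, at the feature with the most reads whose exons overlap the gene's exons by at least 30 bases on the other strand. This gave 13 of the 60675 rows: 8 own rows and 5 opposite features. The opposite feature was HIF1A-AS1 for HIF1A, UFSP2 for ANKRD37, SRFBP1 for LOX, ENSG00000272114 for VEGFA and ARHGEF39 for CA9. HK2, ANGPTL4 and BNIP3 had none.

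RNA came from 3 groups of 4 libraries. Untreated cells were the controls, the second group received 25 µM cyclopiazonic acid (CPA) for 3 hours, and the third received CPA in the presence of synta-66. All groups were the same parental cell line, and no group is labelled as hypoxic. CPA blocks the SERCA pump that refills the endoplasmic reticulum with calcium, the emptied store opens ORAI channels in the plasma membrane, and synta-66 inhibits ORAI channels. The labels leave out the dose of synta-66, and synta-66 without CPA was not analysed here. Nothing in the labels ties the 4 libraries of a group to separate cultures. The p-values therefore reflect only how these libraries varied, which may be technical.

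Hypoxia-inducible factor 1 is a transcription factor made of an oxygen-regulated subunit, HIF-1α, which HIF1A encodes, and a constant partner encoded by ARNT. When oxygen is plentiful, the prolyl hydroxylases of the EGLN family mark HIF-1α and the VHL ligase has it destroyed, so that the protein is set largely by its stability and not by its messenger RNA. The factor binds a short hypoxia response element in its targets, whose core is ACGTG or GCGTG. Among the members, ANKRD37 encodes a small ankyrin-repeat protein and is a known HIF target, and LOX a collagen and elastin cross-linking enzyme tied to invasion. HK2 encodes a hexokinase, the first enzyme of glycolysis, VEGFA the main angiogenic growth factor and ANGPTL4 a secreted inhibitor of lipoprotein lipase. CA9 encodes a cell-surface carbonic anhydrase that buffers acid, and BNIP3 a mitochondrial protein of mitophagy.

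The bases just upstream of a start site are shown for ANKRD37 and LOX, whose readings rose with CPA, for HK2, whose own row fell, and for BNIP3, which was not called. Each is taken from the 250 bases before a RefSeq start in GRCh38.p14, in the gene's own direction, and ends before the first exon base that GENCODE gives the gene there. Capitals mark ACGTG or GCGTG on either strand (CACGT or CACGC when read from the other strand), with overlapping matches joined into 1 stretch. The stretches are chr4:185396591-185396810 (plus strand) for ANKRD37, chr5:122078414-122078509 (minus strand) for LOX, chr2:74833877-74834126 (plus strand) for HK2 and chr10:131981968-131982173 (minus strand) for BNIP3.
ANKRD37: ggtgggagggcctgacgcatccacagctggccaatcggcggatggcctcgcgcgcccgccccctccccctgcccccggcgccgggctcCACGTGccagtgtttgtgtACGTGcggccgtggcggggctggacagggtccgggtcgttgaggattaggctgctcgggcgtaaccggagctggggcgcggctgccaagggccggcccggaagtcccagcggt
LOX: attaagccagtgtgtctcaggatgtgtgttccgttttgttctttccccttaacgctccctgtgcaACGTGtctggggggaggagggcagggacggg
HK2: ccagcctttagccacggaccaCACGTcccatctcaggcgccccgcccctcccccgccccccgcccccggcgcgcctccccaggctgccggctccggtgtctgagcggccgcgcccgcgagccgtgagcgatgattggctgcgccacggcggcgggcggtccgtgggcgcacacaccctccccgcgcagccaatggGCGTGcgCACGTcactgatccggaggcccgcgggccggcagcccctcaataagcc
BNIP3: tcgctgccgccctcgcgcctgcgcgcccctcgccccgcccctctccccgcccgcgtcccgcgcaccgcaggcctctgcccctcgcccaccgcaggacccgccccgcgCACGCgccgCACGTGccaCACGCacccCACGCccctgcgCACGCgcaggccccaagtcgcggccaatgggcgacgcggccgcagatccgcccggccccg

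Over the full 250 bases, the ANKRD37 window held 2 marked stretches, at -162 and -143 from the start, the LOX window 4 (1 of them in the part shown), the HK2 window 3 and the BNIP3 window 5. In CA9 a single stretch began at -18, in HIF1A at -204 and in ANGPTL4 at -234. Windows of 7 members were in the RefSeq table, 11 windows in all, and at least 1 window of each of the 7 held a match. Of the 11 windows, 10 held one. HK2, LOX and HIF1A had further windows: that of HK2 held 4 stretches, those of LOX 2 each and that of HIF1A 0. The shares that follow are per window and not per gene. The core is short and common: 43.2% of all 35116 windows of this length held at least 1 stretch, 16.2% at least 2 and 5.56% at least 3. A match describes the letters and does not show binding. Genes whose rows rose, fell or were not called all carried it.

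The shared stretches are small parts of the loci in GENCODE release 44 on GRCh38. HIF1A (chromosome 14, 61695513 to 61748259, plus strand) and HIF1A-AS1, a long noncoding RNA (61680723 to 61695892, minus strand), share 133 bases of exon 1 of HIF1A, from 61695707 to 61695839. Of these, 35 are coding and 98 untranslated. ANKRD37 (chromosome 4, 185396021 to 185400628, plus strand) shares 909 bases, from 185399570 to 185400478, with UFSP2, a protease that releases the ubiquitin-like modifier UFM1. They include parts of exons 4 and 5 of the main ANKRD37 transcript. LOX (chromosome 5, 122063195 to 122078413, minus strand) shares 138 bases, from 122075404 to 122075541, with an exon of SRFBP1, which encodes a protein that binds serum response factor. All 138 are coding bases of LOX exon 3. VEGFA (chromosome 6, 43770184 to 43786487) contains the whole of ENSG00000272114, a noncoding feature of 188 bases in the untranslated part of exon 1 (43770429 to 43770616). CA9 (chromosome 9, 35673928 to 35681159) shares 571 bases of exons 1 to 3 with ARHGEF39, which by the same rule also lies opposite CCDC107. The reads were counted against an older annotation, Ensembl 84, whose exons may differ. The SRFBP1 exon shared with LOX and the ARHGEF39 exon shared with CA9 may be absent from it.

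**Figure D1:**
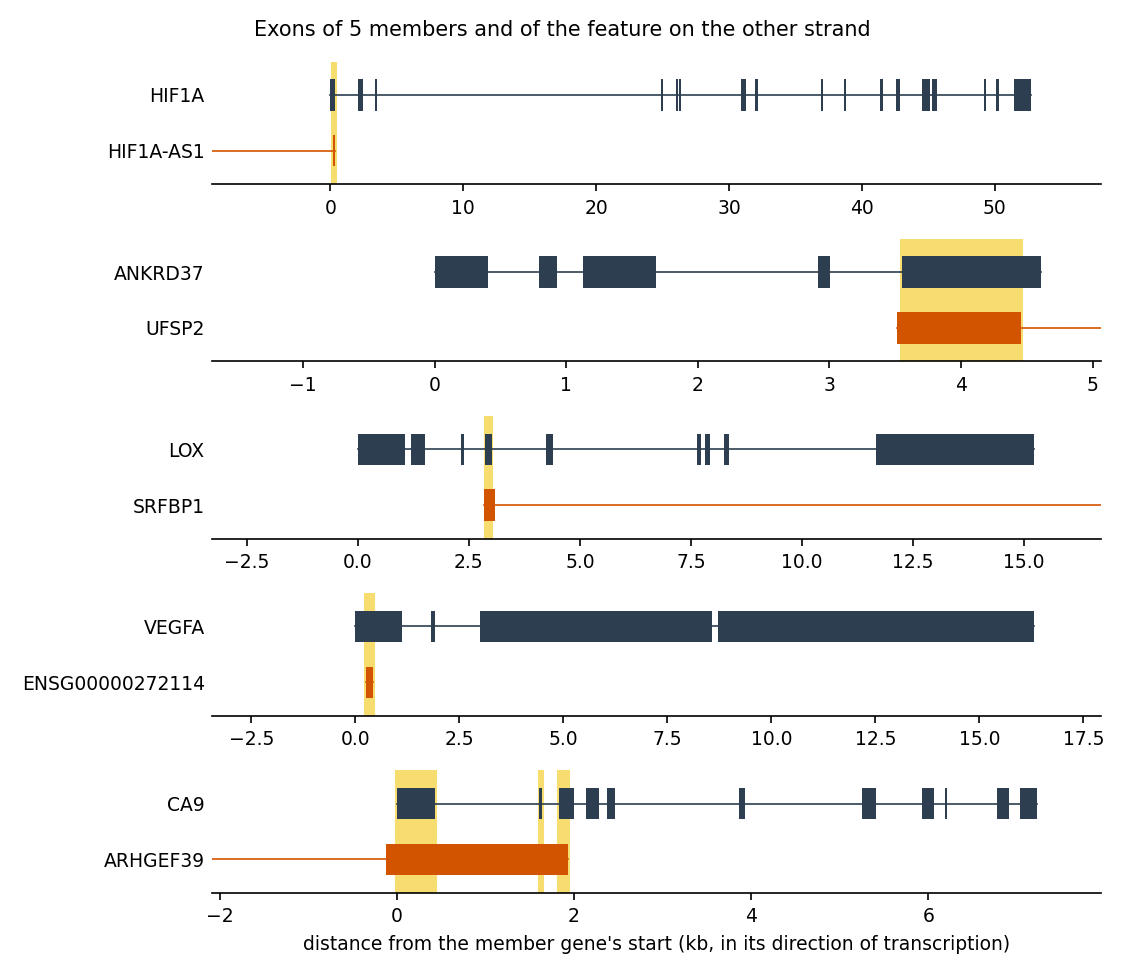
Exons (boxes) of 5 members (dark, upper line of each panel) and of the feature on the other strand (orange, lower line), against distance from the member's start in kilobases. Yellow bands mark shared bases, from 133 bases for HIF1A to 909 for ANKRD37, and lines run on where a feature extends past the panel.

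The 12 libraries held 2819486 to 5458858 reads in genes. Mitochondrial ribosomal RNA took between 0.165% and 53.5% of them, most in untreated replicate 3 (39.6%) and in CPA with synta-66 replicates 1 (53.5%) and 4 (49.4%), the same 3 libraries that had the most non-unique alignments. Values without these 3 libraries are given beside the results. At their own rows, all 10 epithelial markers examined passed the count filter, with the row of the keratin KRT8, which lies opposite KRT18, at 7260 to 8300 CPM in the group means and the others far lower (EPCAM at 1.63 CPM over all libraries). The fibroblast markers COL3A1, PDGFRB, DCN and LUM, the immune marker CD3E and the endothelial marker KDR had no read in any library, and none of 8 fibroblast and 5 endothelial markers passed the filter at its own row. Of 7 immune markers, CD68 (4.2 CPM) and CD14 (0.882 CPM) passed, and the immune markers summed to between 2.18 and 9.2 CPM per library. At opposite features CD68 (53 CPM) and the fibroblast marker FAP (9.93 CPM) passed too. A count of 0 allows up to between 0.6 and 1.31 CPM, depending on the library, for counting error only.

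Which transcript a row holds depends on the strand the reads were counted on. The authors counted the libraries as stranded, the kit is not named in the labels, and whether the setting matched the kit was not tested. Of the unique alignments, 90.5% to 96.3% fell in no feature. The opposite strand often held more: of 5303 coding genes with an opposite feature, 3483 (65.7%) had a higher mean CPM at that feature than at their own row. Among the 2241 whose opposite feature was noncoding, it was 1748 (78%). Where several features lay opposite, the one with the most reads was taken, which raises these shares. GAPDH, an abundant glycolytic enzyme, had 24.3 CPM at its own row and 37600 CPM at the feature across from it. The opposite feature was also the higher one for 4 of the 5 members that have one, all but ANKRD37. An own row may therefore not hold the named gene's transcript, and an opposite feature may hold it or a transcript of its own. Below, rises and falls are those of rows, and their assignment to a gene was not tested. A low own row of a marker says little for the same reason.

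Of the 13 rows, 12 passed the filter on low counts. The own row of CA9 did not. The 14911 rows tested went through edgeR's quasi-likelihood test, p-values were adjusted by the Benjamini-Hochberg method, and a row was called at 0.05 if it also changed 1.5-fold or more. For CPA against untreated, 4 of 12 readings were called (33.3%, against 2.85% of all rows, 1.80% rising and 1.05% falling): HIF1A and HK2 fell at their own rows, and ANKRD37 and LOX rose at their opposite features. For CPA with synta-66 against CPA, 2 of 12 were called (16.7%, against 4.76% of all rows, 1.94% rising and 2.82% falling), HIF1A at its own row, which rose, and LOX at its opposite feature, which fell. When CPA with synta-66 was set against untreated, 2 of 12 were called (16.7%, against 2.90% of all rows, 1.66% rising and 1.24% falling), ANKRD37 and LOX at their opposite features, both higher. The genes had been picked with results of these data known, so these shares describe them and do not set them apart. In bulk RNA, fewer cells with a transcript and less of it per cell cannot be told apart.

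**Figure D2:**
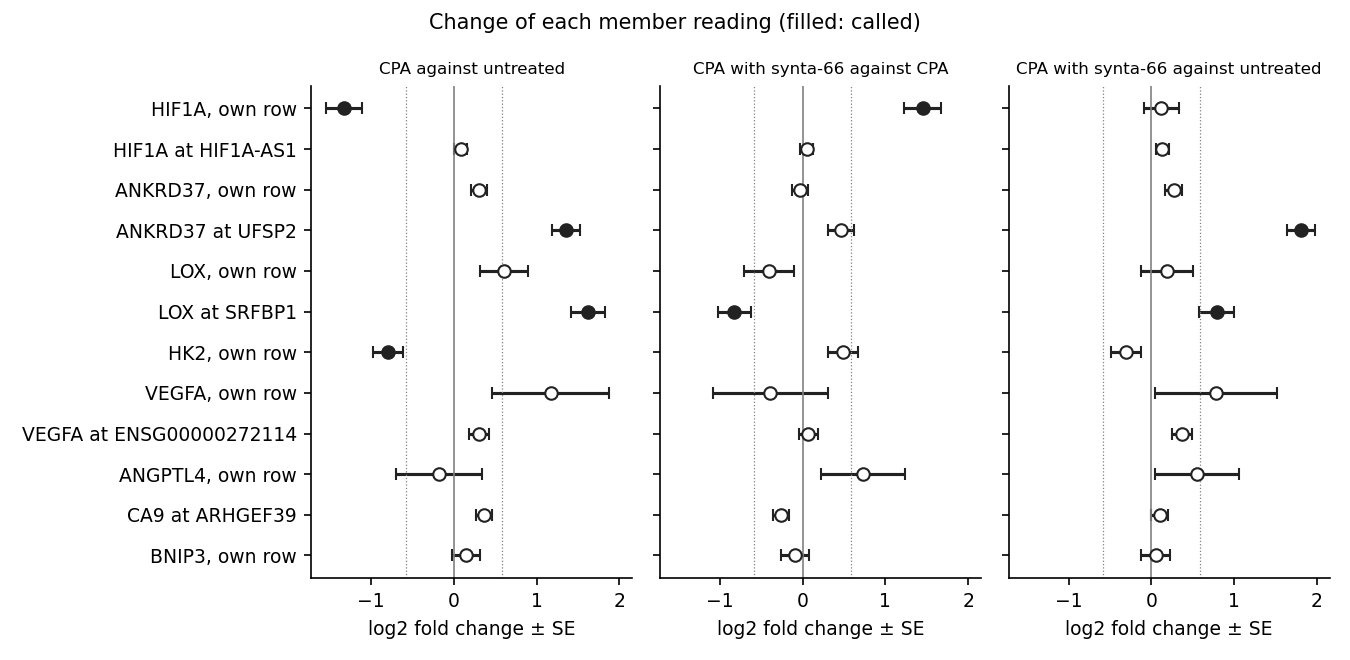
Log2 fold change ± SE of the 12 tested readings in the 3 comparisons, with filled points for called readings and dotted lines at 1.5-fold. HIF1A at its own row moves left with CPA (-1.33) and right when synta-66 is added (1.45), while its reading at HIF1A-AS1 stays near 0 (0.08 and 0.05).

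The row of HIF1A, the gene of the oxygen-regulated subunit, fell with CPA and was higher with synta-66 added, while the feature opposite it was not called. Whether that row holds the HIF1A messenger RNA cannot be told apart from transcription of the other strand. At its own row the untreated libraries had 37.1, 25, 38.4 and 33.4 CPM (read counts relative to the library total after TMM scaling). With CPA they had 21.7, 7.91, 14.3 and 9.5 CPM, and with CPA and synta-66 40.2, 45.1, 30.5 and 28.3 CPM. Every CPA library lay below every library of the other groups, which overlapped each other. The group means were 33.5 ± 6.04, 13.4 ± 6.19 and 36 ± 7.95 CPM (SD, n = 4), from 34 to 200 reads per library. The log2 fold change of CPA against untreated was -1.33 ± 0.22 (SE; edgeR adjusted p = 5.44e-05), a 2.51-fold fall. With synta-66 the row was higher than with CPA alone by 1.45 ± 0.22 (edgeR adjusted p = 9.99e-06), and it differed from untreated by 0.12 ± 0.21 (adjusted p = 0.882). Without the 3 libraries rich in ribosomal RNA the first 2 changes were -1.25 and 1.48.

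At HIF1A-AS1, across from the first exon, the reads were more numerous and steadier. The untreated libraries had 273, 321, 313 and 299 CPM, the CPA libraries 315, 300, 338 and 322, and those with synta-66 321, 364, 300 and 334. The 3 groups overlapped. The changes were 0.08 ± 0.08 for CPA against untreated, 0.05 ± 0.08 for synta-66 added to CPA and 0.13 ± 0.08 for both agents against untreated, and edgeR gave no adjusted p below 0.519. Per kilobase of annotated exon, the level in untreated cells was 290 CPM at HIF1A-AS1 and 6.5 CPM at the row of HIF1A. A second noncoding feature, HIF1A-AS3, shares 299 bases with the annotated exons of HIF1A. Of these, 191 lie in exon 2 and 76 in exon 14 of the main HIF1A transcript. It had 6.43 ± 1.15, 6.45 ± 0.699 and 6.15 ± 2.57 CPM in the same order of groups and was not called in any of the 3 comparisons (adjusted p between 0.984 and 0.995).

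The ratio of the own row to the opposite feature within a library does not depend on library size. For HIF1A its log2 was -3.18 ± 0.35 in untreated, -4.67 ± 0.62 in CPA and -3.21 ± 0.27 in CPA with synta-66 libraries (SD, n = 4). The CPA group overlapped neither of the others. An exact two-sided permutation test gave p = 0.0286 for CPA against untreated and for synta-66 added to CPA, the smallest that 70 splits allow, and an adjusted p of 0.0714 over 15 such tests. At least 9 tests at the smallest p would have been needed to pass 0.05 after adjustment, and 6 reached it. The differing course of HIF1A and HIF1A-AS1 thus separated the groups library by library but did not pass the adjusted threshold.

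**Figure D3:**
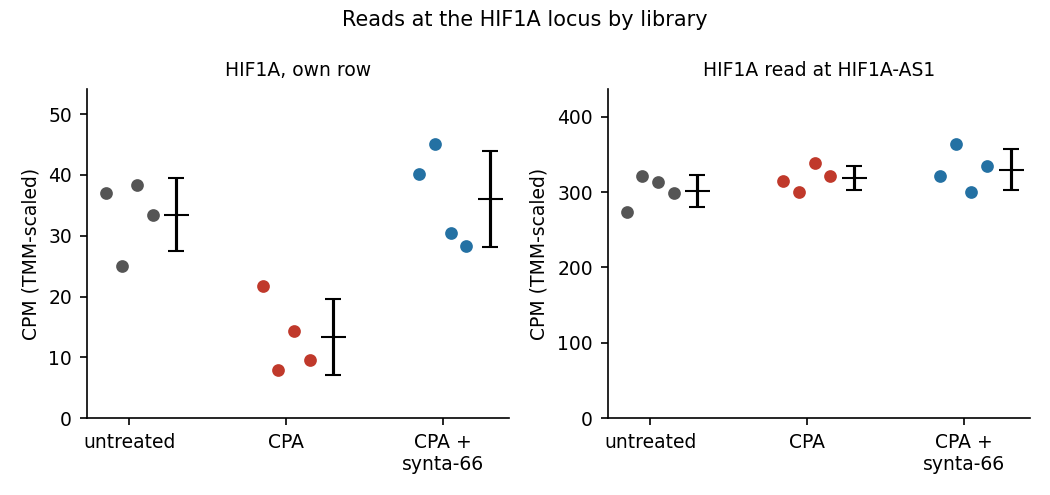
CPM per library (points) with group mean and SD (bars) at the HIF1A row and at HIF1A-AS1, on linear axes from 0. The 4 CPA libraries (7.91 to 21.7 CPM) sit below all others at the HIF1A row, and the groups overlap at HIF1A-AS1 (273 to 364 CPM).

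The UFSP2 row, across from ANKRD37, was higher in both treated groups. The untreated libraries had 23.3, 30.4, 27.8 and 13.5 CPM, the CPA libraries 63, 66.3, 56.1 and 59.1, and the libraries with synta-66 84.8, 102, 85.5 and 60 CPM. Both treated groups lay wholly above the untreated group, and they overlapped each other at 1 library. The means were 23.8 ± 7.45, 61.1 ± 4.44 and 83.2 ± 17.5 CPM. With CPA the row rose by 1.35 ± 0.17 on the log2 scale (edgeR adjusted p = 1.17e-07), and CPA with synta-66 stood 1.81 ± 0.17 above untreated (adjusted p = 6.81e-11). The further step with synta-66, 0.46 ± 0.16, missed the threshold (adjusted p = 0.066). Without the 3 libraries rich in ribosomal RNA it passed (0.59, adjusted p = 0.0313). The order of levels was thus untreated, CPA, CPA with synta-66, with the last 2 not told apart by the test.

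The own row of ANKRD37 had 111, 106, 116 and 99.3 CPM in untreated, 138, 128, 123 and 144 in CPA and 140, 125, 132 and 126 in CPA with synta-66 libraries. Both treated groups were above the untreated one without overlap, but the changes, 0.30 ± 0.10 and 0.27 ± 0.10, were small and not called (edgeR adjusted p = 0.0706 and 0.135). The row of UFSP2 can hold transcripts of UFSP2 itself, which cannot be told apart from those of ANKRD37 in these counts. The log2 ratio of the ANKRD37 row to the UFSP2 row went from 2.24 ± 0.45 in untreated to 1.12 ± 0.13 in CPA and 0.68 ± 0.32 in CPA with synta-66 libraries. Against untreated, both drops had p = 0.0286 in the exact permutation test and an adjusted p of 0.0714. The step between the treated groups had an exact permutation p of 0.0571 and an adjusted p of 0.107.

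The SRFBP1 row, across from LOX, the gene of the matrix cross-linking enzyme, followed another course. Of the 3111 exon bases of SRFBP1, 138 are shared with LOX. The untreated libraries had 9.58, 10.4, 10.6 and 11.1 CPM, the CPA libraries 28.1, 38.1, 30.7 and 31.3, and those with synta-66 17.9, 14.9, 19.9 and 19.6 CPM. None of the 3 groups overlapped another, and the libraries with synta-66 lay between the others. The means were 10.4 ± 0.649, 32.1 ± 4.27 and 18 ± 2.3 CPM, from 34 to 164 reads per library. With CPA the row rose by 1.62 ± 0.20 (edgeR adjusted p = 1.71e-07), a 3.08-fold rise. Adding synta-66 lowered it by -0.83 ± 0.20 (adjusted p = 0.00401), which left it 0.79 ± 0.21 above untreated (adjusted p = 0.0215). That last call ended without untreated replicate 1 (adjusted p = 0.072) or 2 (0.0553), without CPA with synta-66 replicate 3 (0.0791) or 4 (0.0536), in a fit of these 2 groups alone (0.0524) and without the 3 libraries rich in ribosomal RNA (0.196). The rise with CPA (1.64) and the fall with synta-66 (-0.92) were as large without those 3 libraries.

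At its own row LOX had 6.66, 7.8, 13.1 and 9.37 CPM in untreated, 14.5, 16.5, 7.98 and 16.6 in CPA and 13, 6.76, 12.3 and 10 in CPA with synta-66 libraries. The groups overlapped, CPA replicate 3 lay among the untreated values, and no change was called (0.60 ± 0.29, edgeR adjusted p = 0.32, for CPA against untreated). The log2 ratio of the LOX row to SRFBP1 was -0.22 ± 0.36 in untreated and -1.25 ± 0.47 in CPA libraries (exact permutation p = 0.0286, adjusted p = 0.0714). It was -0.81 ± 0.29 with synta-66, which did not pass against either group (adjusted p = 0.195 against CPA and 0.107 against untreated). Whether the reads at SRFBP1 came from LOX or from SRFBP1 cannot be told apart from these counts.

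**Figure D4:**
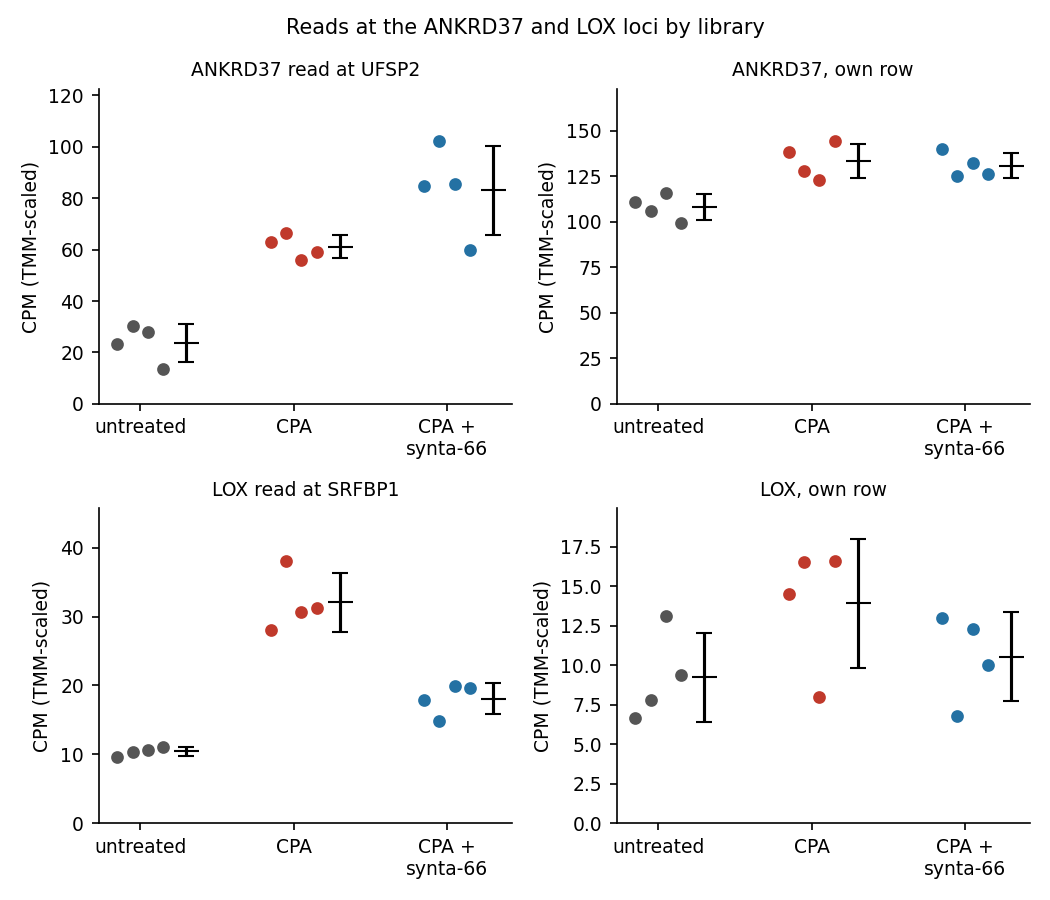
CPM per library (points) with group mean and SD (bars) at UFSP2, ANKRD37, SRFBP1 and LOX, on linear axes from 0. At UFSP2 both treated groups (56.1 to 102 CPM) lie above untreated (13.5 to 30.4 CPM), and at SRFBP1 the libraries with synta-66 (14.9 to 19.9 CPM) lie between untreated and CPA.

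HK2, the first enzyme of glycolysis, could be read only at its own row. It had 38.1, 42.4, 35 and 35.2 CPM in untreated, 26.3, 24.6, 19.6 and 16.4 in CPA and 31.6, 23.2, 37.8 and 29.6 in CPA with synta-66 libraries. The CPA group was below the untreated group without overlap, and the libraries with synta-66 overlapped both. The fall with CPA was -0.80 ± 0.18 (edgeR adjusted p = 0.00275), from a mean of 37.7 ± 3.46 to 21.8 ± 4.56 CPM, and was -0.83 without the 3 libraries. With synta-66 the row was at 30.6 ± 6.03 CPM, a difference from CPA of 0.49 ± 0.18 (adjusted p = 0.095), which passed when CPA with synta-66 replicate 2 was left out (0.62, adjusted p = 0.0395). Against untreated it was at -0.31 ± 0.18 (adjusted p = 0.459).

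BNIP3, of mitophagy, also had only its own row, and its group means lay close together. Its means were 28 ± 3.21, 30.9 ± 1.05 and 29.1 ± 6.46 CPM, and the changes were 0.14 ± 0.17, -0.09 ± 0.17 and 0.05 ± 0.18 in the 3 comparisons (edgeR adjusted p between 0.79 and 0.945). The lowest library, CPA with synta-66 replicate 3, had 19.7 CPM and the highest, replicate 2 of the same group, 34.2. ANGPTL4, the lipase inhibitor, had 4 to 28 reads per library, with means of 3.32 ± 1.36, 2.89 ± 1.1 and 4.67 ± 2.22 CPM. Its groups overlapped and its SE of 0.51 to 0.52 leaves a 1.5-fold change undetectable at this depth.

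VEGFA, the angiogenic factor, had few reads at its own row: 4, 4, 7 and 6 in untreated, 14, 14, 16 and 10 in CPA and 0, 5, 10 and 14 in CPA with synta-66 libraries. In CPM the CPA group (2.16 to 3.61) overlapped the untreated group (0.8 to 2.19) narrowly, and the change of 1.17 ± 0.71 was not called (edgeR adjusted p = 0.473). At ENSG00000272114 the reads were many more, from 247 to 640 per library. There the untreated libraries had 84.1, 88.2, 87.5 and 88.8 CPM, the CPA libraries 84.6, 115, 131 and 99.1, and those with synta-66 105, 133, 103 and 107 CPM. CPA against untreated gave 0.30 ± 0.12 (edgeR adjusted p = 0.16) and both agents against untreated gave 0.37 ± 0.12 (adjusted p = 0.0712), in the second case with no overlap between groups. Neither was called.

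CA9, the acid-buffering anhydrase, was nearly absent from its own row, with 4, 6, 1 and 3 reads in untreated, 0, 1, 2 and 0 in CPA and 1, 4, 0 and 0 in CPA with synta-66 libraries. These are at or near the limit of counting, and no fold is given. At ARHGEF39 the means were 133 ± 12.5, 171 ± 14.8 and 143 ± 12.5 CPM. All 4 CPA libraries (149 to 183 CPM) were above all untreated ones (118 to 146 CPM). The change of 0.36 ± 0.10 had an edgeR adjusted p of 0.0222 but, at 1.28-fold, missed the minimum fold. With synta-66 it was lower than with CPA by -0.26 ± 0.10 (adjusted p = 0.118). Since ARHGEF39 lies opposite another coding gene and can hold its own transcripts, the rise cannot be placed in CA9.

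The pathway was described by 95 genes in 7 lists, the 8 members among them: HIF subunits and oxygen sensing, and HIF targets in glucose uptake and glycolysis, secreted and vascular factors, acid-base balance, matrix modification, mitochondria and autophagy, and signalling and feedback. At own rows 63 of the 95 genes were tested. With CPA none rose and 2 fell, HIF1A and HK2 (3.17%, against 2.50% of coding genes at own rows, 1.57% rising and 0.929% falling), with a median log2 fold change of 0.02 against -0.02. At opposite features 32 were tested, of which 4 rose and none fell (12.5%, against 4.77% of coding genes so read, 3.46% rising and 1.31% falling), with a median of 0.17 against 0.04. The 4 were ANKRD37, LOX, BHLHE40 and VLDLR. Without the members, which were picked with results known, 87 genes remained. At their 56 tested own rows edgeR called none with CPA (3 at an unadjusted p under 0.05, and none with DESeq2). At 27 opposite features edgeR called 2, both rising (7.41%, against 4.77%), with 10 at an unadjusted p under 0.05 and 3 called by DESeq2. The counts by unadjusted p and by DESeq2, at both readings, have no share of all coding genes beside them. Whether they are more or fewer than usual was therefore not tested. The own-row values of the 95 genes with synta-66 added to CPA gave 3 rises, HIF1A, STC2 and NDUFA4L2, and 1 fall, PASK (6.35%, against 4.48%, with 1.76% rising and 2.72% falling). At opposite features they gave 1 rise, NDUFA4L2, and 1 fall, LOX (6.25%, against 6.89%, with 2.86% rising and 4.03% falling). For CPA with synta-66 against untreated, 1 own row rose, NDUFA4L2 (1.59%, against 2.97%, with 1.70% rising and 1.26% falling), and 4 opposite features, ANKRD37, LOX, NDUFA4L2 and VLDLR (12.5%, against 4.38%, with 3.17% rising and 1.21% falling). Without the members, 1.79% of own rows and 7.41% of opposite features were called in that comparison. With synta-66 added to CPA it was 5.36% of own rows (against 4.48%) and 3.70% of opposite features (against 6.89%).

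At BHLHE40-AS1, across from the clock repressor and HIF target BHLHE40, reads rose with CPA from 2.68 ± 1.75 to 13 ± 2.04 CPM (2.32 ± 0.40, edgeR adjusted p = 8.53e-05). With synta-66 it stood at 6.53 ± 3.34 CPM, which was not called against CPA (adjusted p = 0.0983). At VLDLR-AS1, across from the lipoprotein receptor gene VLDLR, they rose from 11.4 ± 2.86 to 24.2 ± 2.79 CPM (1.09 ± 0.22, adjusted p = 0.000827), while the own row of VLDLR had 4.72 ± 1.9 and 5.29 ± 0.913 CPM (0.14 ± 0.40, adjusted p = 0.926). VLDLR-AS1 had 23.2 ± 5.19 CPM with synta-66, and that difference from untreated was 1.01 ± 0.23 (adjusted p = 0.00302), a call that ended without the 3 libraries rich in ribosomal RNA (0.76, adjusted p = 0.176). VLDLR-AS1, like UFSP2, was high in both treated groups, whereas BHLHE40-AS1 and SRFBP1 had their highest means with CPA alone. Both antisense features can hold transcripts of their own.

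NDUFA4L2, which lowers mitochondrial respiration in hypoxia, went from 19 ± 6.88 CPM with CPA to 38.8 ± 5.52 with synta-66 at its own row (1.03 ± 0.19, edgeR adjusted p = 0.000241). At SHMT2, the feature across from it, the means were 5.61 ± 1.42 and 17.4 ± 3.48 CPM (1.65 ± 0.32, adjusted p = 0.000307). SHMT2 is a coding gene, a mitochondrial enzyme of serine metabolism, and its own transcripts cannot be told apart from those of NDUFA4L2 there. The own-row rise of NDUFA4L2 over untreated (0.64 ± 0.19, adjusted p = 0.0472) ended on leaving out any of 8 single libraries. It also ended without the 3 together (0.50, adjusted p = 0.394). The hormone gene STC2 rose with synta-66 against CPA at its own row from 6.16 ± 0.695 to 13.1 ± 2.69 CPM (1.09 ± 0.31, adjusted p = 0.0222). The nutrient-sensing kinase gene PASK fell from 10.2 ± 0.79 to 4.03 ± 1.65 CPM (-1.36 ± 0.37, adjusted p = 0.0146). The STC2 call ended without CPA replicate 2 (0.0592) or 3 (0.0618), without CPA with synta-66 replicate 3 (0.0979) or 4 (0.0576) and without the 3 libraries (0.106), and the PASK call without CPA with synta-66 replicate 2 (0.0504) or 3 (0.058).

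Most other core genes of the pathway had few reads at their own rows, and those named here were not called. The exception in level was the row of HIF1AN, the asparaginyl hydroxylase that blocks HIF-1α activity. It had 221 ± 8.4 CPM in untreated and 245 ± 16 CPM in CPA libraries (0.15 ± 0.09, edgeR adjusted p = 0.463). This row lies opposite NDUFB8, whose own row had 0.0918 CPM over all libraries, against 233 CPM at HIF1AN. Which gene's transcript the HIF1AN row holds was not tested. HIF1AN was named after its values were seen. For CPA against untreated, EPAS1, the second oxygen-regulated subunit, had -0.93 ± 0.60 (edgeR adjusted p = 0.504), ARNT, the constant partner, -0.03 ± 0.42 (0.988), the hydroxylase gene EGLN1 0.06 ± 0.29 (0.96) and EGLN3 0.88 ± 1.17 (0.81). VHL had a mean of 1.58 reads and was not tested. Among targets, the glucose transporter SLC2A1 had 0.57 ± 0.28 (adjusted p = 0.331), PGK1 0.17 ± 0.29 (0.871), LDHA 0.31 ± 0.38 (0.787), the vasodilator gene ADM -1.06 ± 0.41 (0.162), DDIT4 0.27 ± 0.43 (0.849) and NDRG1 -0.27 ± 0.72 (0.921). The collagen hydroxylase P4HA1, untested at its own row, had 37 ± 4.46 CPM in untreated and 40.6 ± 4.2 CPM in CPA libraries at the feature across from it (0.13 ± 0.15, adjusted p = 0.769). GAPDH, which HIF can raise, was at 25.3 ± 6.96 and 22 ± 6.84 CPM at its own row (-0.20, adjusted p = 0.757), and at 35000 ± 4020 CPM in untreated and 39100 ± 2700 CPM in CPA libraries at its opposite feature (0.16, adjusted p = 0.27). Apart from HIF1AN and GAPDH (SE 0.09 and 0.22), the standard errors of these own rows, from 0.28 to 1.17, leave changes of 1.5-fold hard to detect.

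**Figure D5:**
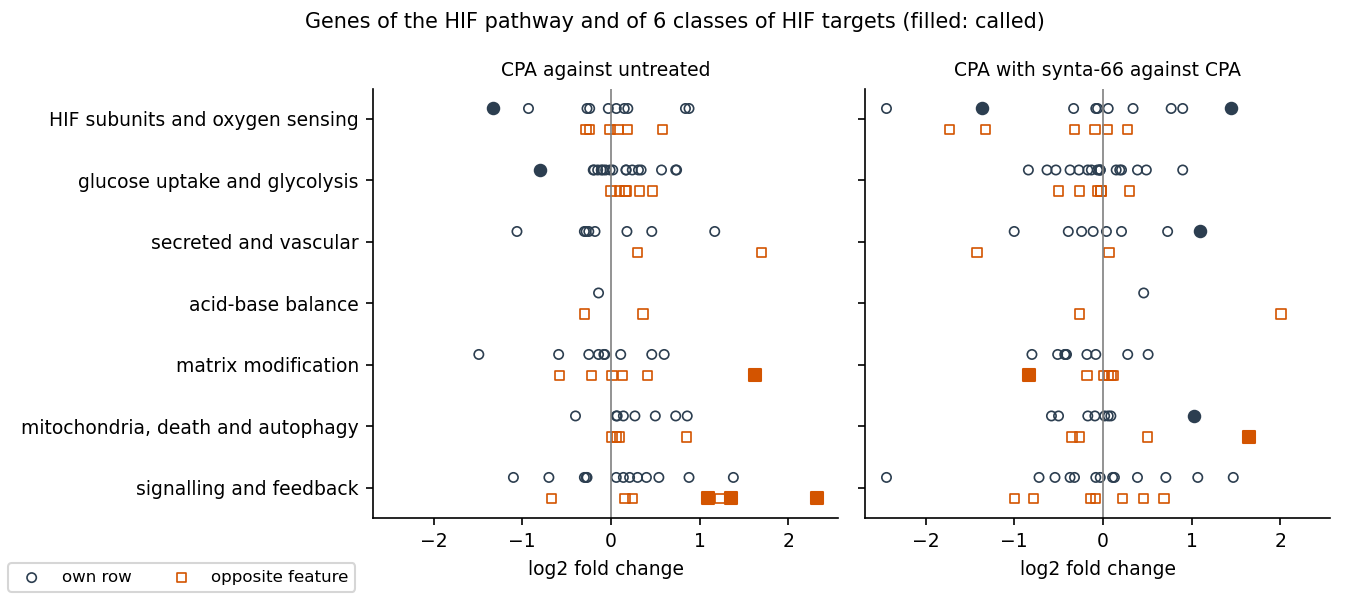
Log2 fold changes of the tested genes of the 7 pathway lists, at their own row (circles) and at the opposite feature (squares), for CPA against untreated and for synta-66 added to CPA, with filled marks for called rows. With CPA the filled circles (HIF1A at -1.33 and HK2 at -0.80) lie left of 0 and the 4 filled squares right of it.

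Over the 12 libraries, the rows whose log2(CPM + 1) correlated best with each called reading were found among tested rows with a mean of at least 5 CPM. All points share libraries and scaling, so the r values are descriptions. The HIF1A row was most like IL20RB-AS1, opposite IL20RB (r = 0.93), the row of HAS3, opposite CHTF8 (0.90), and ENSG00000261266, opposite PLK1 (0.90). The UFSP2 row was most like ABHD1, which lies opposite PREB (r = 0.97), EGILA, opposite ANG and RNASE4 (0.96), and IL6-AS1, opposite IL6 (0.95). The SRFBP1 row was most like ENSG00000254680, opposite MICAL2 (r = 0.97), ENSG00000261604, opposite HMGCS1 (0.95), and COX15, opposite ENTPD7 (0.94). The HK2 row was most like SLC25A26, opposite LRIG1 (r = 0.94), PROSER2-AS1, opposite PROSER2 (0.88), and ENSG00000240050 (0.87). At IL6-AS1 the group means stepped up as at UFSP2, from 8.83 to 21.4 and 29.6 CPM, and at ENSG00000261604 they peaked with CPA as at SRFBP1, from 416 to 904 and then 643 CPM. Both rows were picked by r over these same libraries, so that likeness follows from the choice.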

How the data were processed

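Per the labels' protocols, the authors trimmed the reads with Trimmomatic 0.32 (0.36 per the submitters' processing notes), aligned them with STAR 2.5.2a to GRCh38 with the Ensembl 84 annotation and counted them with HTSeq-count 0.6.1p1, taking the libraries as stranded. None of the sources at hand names the library kit, so the strand setting was not checked against it. Own and opposite rows may each hold the other gene's transcripts. The authors deposited whole-number counts, unnormalized, with 60675 gene rows a file. The 5 closing rows of unassigned reads were left out. They include the unique alignments in no feature, 90.5% to 96.3% of the unique total. The share in genes was 3.58% to 9.4%. Rows were matched by ID to GENCODE 44 (56558 matched, 4117 not).

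edgeR 4.0.16 under R 4.3.3 tested the counts: the study's filter (5 reads in 2 of 4 libraries of a group), TMM scaling, a single quasi-likelihood fit to all 12 libraries by group without other terms, and p-values adjusted by Benjamini-Hochberg across 14911 rows. Ratios of own row to opposite feature used a pseudocount of 0.5. Of these steps, only the edgeR fit was also run on simulated counts with planted changes. Those counts were drawn around a mean composition shared by all libraries. The members, lists and alternatives were chosen with earlier results of these data known. Named pathway genes are, per list, reading and comparison, up to 4 called members with a mean of at least 1 CPM, plus 12 genes whatever their values. GAPDH and HIF1AN were added after their values were seen. Like rows were the 3 with the highest r for each called reading. The alternatives tried were upper-quartile and RLE scaling, DESeq2 1.42.0, removal of mitochondrial ribosomal RNA, other filters, no minimum fold, fits of 2 groups, the replicate number as a block, libraries left out, and, for the opposite feature, an overlap of at least 1 or 100 bases or a single coding gene opposite it.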

Additional observations from a re-analysis of the deposited data

Results flagged for a closer look

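In 39 groups of 4 libraries (13 rows in 3 groups), 1 library stood apart from the others by more than the gap that chance gives in about 1 of 20 groups. At ENSG00000272114, the feature opposite VEGFA, CPA with synta-66 replicate 2 had 133 CPM, while the other libraries of its group had 103, 105 and 107 CPM. The gap to the nearest was 0.851 of the group's range, above Dixon's 95% limit for 4 values.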

How the results depend on the processing

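The called changes with CPA at HIF1A (-1.63 to -1.14), UFSP2 (1.17 to 1.50), SRFBP1 (1.53 to 1.69) and HK2 (-0.89 to -0.68), and with synta-66 added to CPA at HIF1A (1.26 to 1.76) and SRFBP1 (-0.92 to -0.74), kept their direction and their call under each of the 22 alternatives run for each. For CPA with synta-66 against untreated, 2 member readings were called. This became 1 in the fit of 2 groups only and when the 3 libraries with most non-unique alignments were dropped, and ranged from 1 to 2 when libraries were left out in turn. In each case the lost call was SRFBP1, and the cause was not tested. With no minimum fold, 655 rows in place of 425 were called for CPA against untreated, because smaller changes count. Leaving out single libraries gave 357 to 441, 568 to 784 and 335 to 427 called rows in the 3 comparisons. Of the 5 opposite features, 4 remained if a feature could lie opposite only 1 coding gene (ARHGEF39 was lost), and an overlap minimum of 1 or 100 bases changed none. The ratio tests did not pass after adjustment with all libraries, so leaving libraries out says nothing about their stability.

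The sample numbers in the titles did not pair libraries: none of 12 same-numbered pairs had a correlation of deviations above 0.1 (-0.0237 to 0.054), and 5 of 12 libraries correlated best with their own number. With the replicate block the member readings called were 4, 2 and 2, as without it, and all rows called were 441, 723 and 418 against 425, 710 and 433. Low counts limit the own rows of VEGFA, ANGPTL4 and CA9.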
